A study of Mus musculus with 8 samples.

Results

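Imprinted genes are transcribed mainly or solely from the allele inherited from 1 parent, and 50 of them were followed here in primordial follicles isolated from postnatal day 3 ovaries, in mito-supplemented and in control mice. The 50 symbols were given as a list of known imprinted genes, by a rule that uses no measured value, and all 50 were found among the 26586 gene symbols counted. From textbook knowledge, 29 are expressed from the paternal and 20 from the maternal allele, while Gnas gives transcripts of both origins. The mito-supplemented samples came from mice of the third generation descending, through females mated with colony males, from founders whose oocytes, of the strain F1: C57BL6/J/MARP x CBA/MARP, had received mitochondria isolated from egg precursor cells together with a spermatozoon by intracytoplasmic sperm injection (ICSI). The study describes its colony controls as naturally mated and does not give the origin of the sequenced controls separately. With such controls the groups differed in the superovulation, ICSI, embryo culture, vitrification and embryo transfer behind the founders as well as in the added mitochondria. No group of ICSI alone was analysed here. The labels give the C57Bl/6 x CBA background for all samples, all were taken on postnatal day 3, and each group comprised 4 samples named as biological replicates 1 to 4. The labels do not say which samples came from separate litters, and p values therefore measure the spread between these samples.

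Imprinting rests on DNA methylation that differs between the parental alleles at control regions, and 1 such region usually sets the expression of a whole cluster of neighbouring genes. The marks are erased in primordial germ cells and are laid down again in the female germline only as oocytes grow after birth, whereas somatic cells such as the pregranulosa cells around each oocyte keep the marks received from the parents. Paternally expressed members of the list, such as Igf2, Peg3, Mest and Dlk1, are known mainly for promoting growth, and maternally expressed members, such as Igf2r, Cdkn1c and Grb10, mainly for restraining it. The counts do not separate the parental alleles, so they give the total RNA of each gene and not its imprinting.

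The promoters of 4 members are shown because Meg3, Rian and Mest had the lowest p values among the members and Dlk1 is the protein-coding neighbour of Meg3 in the cluster with the highest median difference. Each sequence is the 250 bases before a RefSeq transcription start on the plus strand of GRCm38.p6, and capitals mark the hexamer TGCCGC, which ZFP57 recognises when methylated, read here on either strand (GCGGCA on the strand printed). The Meg3 window lies at chr12:109540746-109540995, that of Rian at chr12:109603695-109603944, that of Dlk1 at chr12:109452573-109452822 and that of Mest at chr6:30737800-30738049.
Meg3: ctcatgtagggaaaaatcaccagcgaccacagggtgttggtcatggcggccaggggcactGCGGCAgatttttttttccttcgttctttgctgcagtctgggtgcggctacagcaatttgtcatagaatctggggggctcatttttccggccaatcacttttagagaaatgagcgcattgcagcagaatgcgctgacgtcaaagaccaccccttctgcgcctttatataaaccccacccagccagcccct
Rian: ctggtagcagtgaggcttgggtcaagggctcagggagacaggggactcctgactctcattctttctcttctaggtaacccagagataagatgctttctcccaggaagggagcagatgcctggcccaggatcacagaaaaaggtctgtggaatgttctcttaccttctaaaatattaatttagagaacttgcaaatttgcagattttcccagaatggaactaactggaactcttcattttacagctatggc
Dlk1: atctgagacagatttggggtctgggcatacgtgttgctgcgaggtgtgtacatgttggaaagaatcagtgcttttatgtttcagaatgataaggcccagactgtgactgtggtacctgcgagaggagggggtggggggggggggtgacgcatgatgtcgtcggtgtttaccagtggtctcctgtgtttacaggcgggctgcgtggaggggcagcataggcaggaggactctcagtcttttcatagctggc
Mest: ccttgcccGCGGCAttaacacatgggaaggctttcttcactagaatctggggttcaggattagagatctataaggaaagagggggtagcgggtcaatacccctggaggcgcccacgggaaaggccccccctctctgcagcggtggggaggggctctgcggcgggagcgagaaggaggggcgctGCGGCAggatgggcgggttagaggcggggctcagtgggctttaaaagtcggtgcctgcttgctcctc
RefSeq lists 2 windows for Meg3 and 3 for Mest, and the window with the most matches is shown, the more upstream one where windows tied, as for Mest. The hexamer was found 190 bases before this start of Meg3 and at 242 and 67 bases before this start of Mest, and the windows of Rian and Dlk1 held no match. In windows of 300 bases (250 before to 50 after each start), 14 of the 41 members with a RefSeq promoter held a match on either strand in at least 1 of their windows (34.1%), whereas 13.1% of all 27025 genes did. The share was 9 of 23 paternally expressed members (39.1%) and 5 of 17 maternally expressed members (29.4%). Some genes have several windows, and counted per window a match lay in 25% of the members' 60 windows and in 11.6% of all 32851 windows. The members' windows were also richer in CpG, with a median of 13.5 CpG per window against 7 in all windows, so the shares are a description of sequence and not of binding.

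Between 10370045 and 19760763 reads were counted per library, of which 20.2 to 75.3% fell on the rRNA genes Rnr1, Rnr2, Rn45s and Rn18s. Control replicate 4 had the highest such share and the lowest total, and 2559876 of its counts lay outside these genes, whereas the other libraries had at least 7280214. All 14 oocyte markers, among them Ddx4, Figla and Zp3, and the pregranulosa marker Foxl2 were counted in every library. Levels are given as CPM, which are counts scaled by the library total and by the TMM normalisation factor of each library. The summed level of the oocyte markers, however, was 4306 CPM in control replicate 1 and 147 to 943 CPM in the other 7 libraries. Red cell markers summed to 4170, 2810 and 5076 CPM in control replicates 2 and 3 and mito-supplemented replicate 1 and to 14.2 to 82.1 CPM in the other 5 libraries. Fewer cells of a type and less RNA per cell cannot be told apart in such samples.

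The 50 members together held 0.359 to 1.12% of the counts outside the rRNA genes in the control libraries and 0.444 to 1.49% in the mito-supplemented libraries. Their summed level was 2413, 2323, 3119 and 5659 CPM in control replicates 1 to 4 and 3397, 7114, 4802 and 7714 CPM in mito-supplemented replicates 1 to 4. Control replicate 4 was thus above mito-supplemented replicates 1 and 3, and the groups overlapped. This order depends on the scaling. Per count of the library total, with the rRNA genes included and without the TMM factor, control replicate 4 was below every mito-supplemented library. The groups did not overlap on that scale, on which the rRNA genes took up 75.3% of the total of control replicate 4. Outside the rRNA genes the members' share in control replicate 4, 1.12%, was above that in mito-supplemented replicates 1 and 3, 0.444 and 1.03%. Peg3 alone made up 13.4 to 39.9% of the members' counts. Without Peg3 the summed levels were 1927 to 3972 CPM in control and 2549 to 5657 CPM in mito-supplemented samples.

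Compared per kilobase of exon and averaged over all 8 libraries, H19 had the highest level at 161 CPM per kilobase, followed by Peg3 at 98.0, Cd81 at 61.1, Igf2 at 57.2, Mest at 46.4 and Gnas at 38.2. Within libraries H19 was above Peg3 in 8 of 8, with a log2 ratio per kilobase of 0.75 ± 0.51 (mean ± SD), whereas each later gene in this order was above the next in only 5 or 6 of 8 libraries, with a mean log2 ratio smaller than its SD. Between libraries the levels varied widely. H19 had 113 ± 94.6 CPM per kilobase in control (mean ± SD, n = 4) and 209 ± 115 in mito-supplemented samples, and Peg3 61.1 ± 45.9 and 135 ± 63.9. At the other end, 10 members did not pass the expression filter. Snurf had 0 counts in every library and Phlda2, which limits placental growth, had 3 counts in 1 library. Snrpn had 8 and 4 counts in mito-supplemented replicates 1 and 2 and 0 counts elsewhere, and the values of both genes are uncertain. Snurf lies within Snrpn and shares 216 of its 2159 exon bases in GENCODE M21, RefSeq gives both genes the same 3′ end, and the annotation behind the counts is not given in the sources used here, so how many reads the genes share is not known. Slc22a18, Magel2, Mkrn3, Peg12, Asb4, Ascl2 and Dio3 were the remaining 7, and Ascl2, a basic helix-loop-helix factor, had 167 counts in control replicate 1 against at most 6 counts in any other library.

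None of the 40 members tested differed between the groups at an adjusted p value under 0.05 by the quasi-likelihood test of edgeR with adjustment after Benjamini and Hochberg, in which 0% of all 13873 genes were called, and the lowest adjusted p value of a member was 0.599. Meg3, Rian and Mest were the 3 members with an unadjusted p value under 0.05, each higher in mito-supplemented samples. These are 7.5% of the members tested, whereas 7.71% of all genes tested passed the same threshold (5.31% higher and 2.4% lower), so the members passed no more often than other genes. Without control replicate 4 the count was 13 of 42 members tested (against 12.6% of all genes), and without mito-supplemented replicate 1 it was 8 of 43 (against 14.1%). The likelihood ratio test in edgeR, which the study used, called 0.418% of all genes at an adjusted p value under 0.05 and DESeq2 called 1.03%, and both called 0 members. With limma-voom and sample quality weights, 11 of the 40 members (27.5%) had an adjusted p value under 0.05, all higher in mito-supplemented samples. Of all genes, this test called 21% in both directions and 11% as higher. The 11 members were H19, Peg3, Mest, Cdkn1c, Dlk1, Meg3, Rian, Sgce, Nnat, Zdbf2 and Slc38a4.

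The direction of the differences was less evenly split among the members than among all genes. Of the 40 members, 31 had a higher fitted level in mito-supplemented samples (77.5%) and 9 a lower one, while 44.9% of all genes tested were higher. The median log2 fold change was 0.57 for the members and -0.10 for all genes tested. With 1 library left out the members' median ran from 0.46 to 1.10, highest without control replicate 4, where that of all genes was -0.0831. A difference of at least 2-fold upwards (log2 fold change of 1) was found in 10 members (25%, against 13.5% of all genes), and a difference of that size downwards in 0 members (against 12.8%). In none of the 40 were the 4 mito-supplemented libraries all above or all below the 4 control libraries, whereas 3% of all genes were wholly above and 2.03% wholly below. Replicate 4 was the highest control library for 25 of the 40 members, and replicate 1 the lowest mito-supplemented library for 27. Without control replicate 4, an alternative chosen after the data were examined, the mito-supplemented libraries were wholly above the other controls for 10 members (25%, against 8.44% of all genes), which were H19, Peg3, Mest, Cd81, Grb10, Dlk1, Rian, Sgce, Nnat and Gnas. The same count was 6 without mito-supplemented replicate 1 (against 7.04% of all genes) and 0 to 2 without any other library (against 3.42 to 5.38%).

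**Figure D1:**
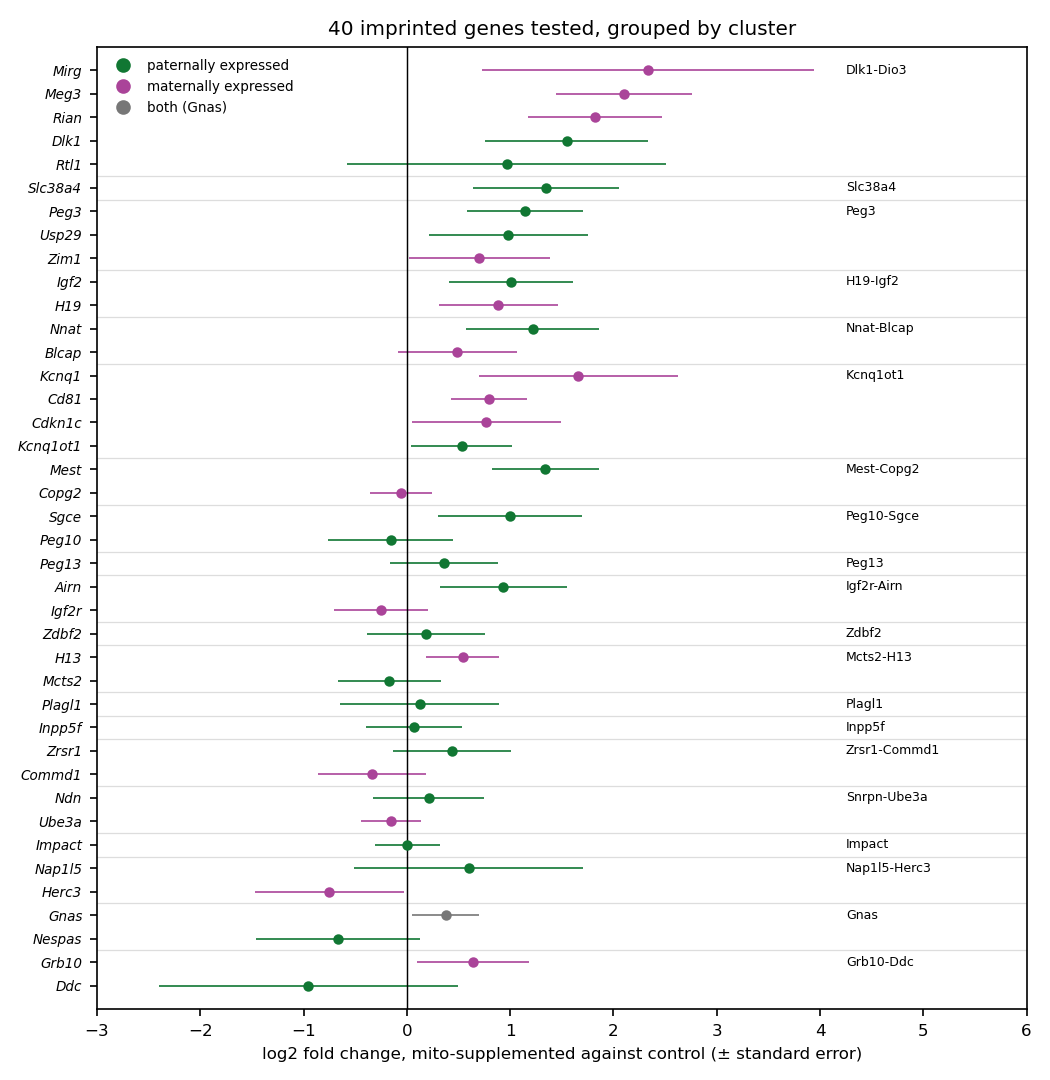
Log2 fold change of mito-supplemented against control samples (n = 4 each) for the 40 members tested, with bars for the standard error and with genes of 1 cluster listed together. Points right of the line at 0 are the 31 members with a higher fitted level in mito-supplemented samples, and the 5 members of the Dlk1-Dio3 cluster at the top lie between 0.97 and 2.33.

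Paternally and maternally expressed members did not part in direction. Among the paternally expressed members, 19 of 23 tested were higher in mito-supplemented samples, with a median log2 fold change of 0.53. Among the maternally expressed members, 11 of 16 were higher, with a median of 0.67. Without control replicate 4 the medians were 1.18 and 1.10. Gnas, which encodes the stimulatory G protein alpha subunit, was at 0.37. When the mean log2 CPM of the maternally expressed members was subtracted from that of the paternally expressed members in each library, the result was -0.58 ± 0.36 in control (mean ± SD, n = 4) and -0.55 ± 0.17 in mito-supplemented samples, a difference of 0.03. It was 0.26 without control replicate 4, whose value of -0.10 was the highest control, and -0.03 without control replicate 1. Among the members that are imprinted in most tissues, 18 of 21 paternally expressed genes and 6 of 7 maternally expressed genes were higher, while among those imprinted in few tissues or in placenta only the counts were 1 of 2 and 5 of 9.

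The Dlk1-Dio3 cluster on chromosome 12 had the highest median of the clusters with at least 2 members tested, with a log2 fold change of 1.82 and with 5 of 5 members higher. Its paternally expressed genes are Dlk1, Rtl1 and Dio3, and its maternally expressed genes are the noncoding RNAs Meg3, Rian and Mirg, read in 1 direction along the cluster. Meg3 (ENSMUSG00000021268, chr12:109541001-109571726, plus strand), a long noncoding RNA, had 22.1, 30.2, 87.7 and 93.0 CPM in control replicates 1 to 4 and 77.3, 299.6, 146.3 and 476.1 CPM in mito-supplemented replicates 1 to 4. Mito-supplemented replicates 2, 3 and 4 lay above every control library, and replicate 1 lay below control replicates 3 and 4. The mean was 58.2 ± 37.3 CPM in control and 249.8 ± 177.1 CPM in mito-supplemented samples (mean ± SD, n = 4), a log2 fold change of 2.10 ± 0.66 (SE) with an adjusted p = 0.599 in edgeR's quasi-likelihood test.

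Rian (chr12:109603940-109661716, plus strand), which hosts small nucleolar RNAs, had 5.09, 14.1, 28.6 and 37.9 CPM in control replicates 1 to 4 and 35.4, 75.8, 49.0 and 141.9 CPM in mito-supplemented replicates 1 to 4. Control replicate 4 alone was above the lowest mito-supplemented library, by a small margin. The log2 fold change was 1.82 ± 0.65 (SE, edgeR quasi-likelihood adjusted p = 0.626). Mirg, which hosts microRNAs, had the highest fold change of any member tested with every library included, at 2.33 ± 1.61 (SE), but this rests on low counts and single libraries. Without mito-supplemented replicate 4 it was 0.86, and without control replicate 3 it was 5.88. Without control replicate 4 it was 1.98, below Rtl1 at 3.20, Dlk1 at 2.51, Meg3 at 2.43, Rian at 2.26 and Dio3, which passed the filter in that fit, at 7.96. Members of other clusters, such as Nnat at 2.15, were also above it in that fit. Mirg had 1, 1, 40 and 0 counts in control replicates 1 to 4 and 2, 19, 43 and 135 counts in mito-supplemented replicates 1 to 4, with an adjusted p = 0.721 in edgeR's quasi-likelihood test.

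Dlk1 (chr12:109452823-109463336, plus strand), a transmembrane protein related to Notch ligands, had 5.33, 4.04, 6.98 and 26.3 CPM in control replicates 1 to 4 and 11.6, 14.3, 21.3 and 76.1 CPM in mito-supplemented replicates 1 to 4. Control replicate 4 was above mito-supplemented replicates 1 to 3, and the other controls were below all of them. The log2 fold change was 1.55 ± 0.79 (SE, edgeR quasi-likelihood adjusted p = 0.667), and it was 0.61 with mito-supplemented replicate 4 left out and 2.51 with control replicate 4 left out. Rtl1, a retrotransposon-derived gene, had 0, 4, 49 and 86 counts in control and 17, 102, 68 and 395 counts in mito-supplemented replicates 1 to 4, and reads of the microRNAs encoded on its opposite strand cannot be told apart from its own. Dio3, which inactivates thyroid hormone, had 0 counts in all 4 control libraries and in mito-supplemented replicate 1, and 40, 24 and 44 counts in mito-supplemented replicates 2, 3 and 4. A count of 0 allows up to 3 counts, and Dio3 did not pass the expression filter with every library included and was not tested there. It did pass in some fits with a library left out, at 7.96 without control replicate 4, a value that rests on the 0 counts in control. The rank of the cluster depends on mito-supplemented replicate 4, the only library with its label prefix. Without it 4 of 5 members were higher, the lowest value was -0.40, and the median of 0.86, that of Mirg, was below that of the Peg3 cluster at 0.89. Meg3 and Rian were at 1.61 and 1.35 in that fit.

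**Figure D2:**
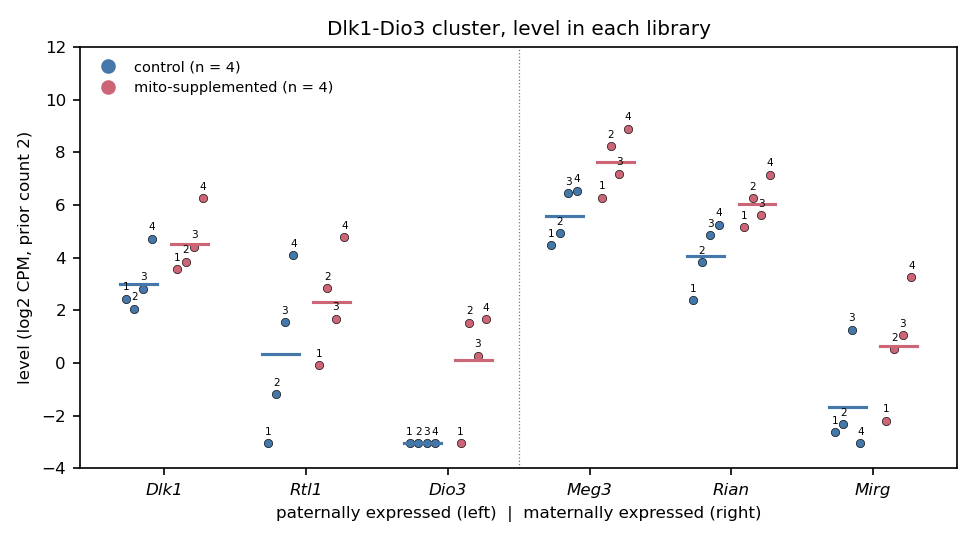
Level of the 6 genes of the Dlk1-Dio3 cluster in each library on the log2 CPM scale with a prior count of 2, with the replicate number beside each point and a bar at the mean of each group (n = 4). Dio3 sits at the floor in the 4 control libraries and mito-supplemented replicate 1, and mito-supplemented replicate 4 is the highest library for all 6 genes.

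At the H19-Igf2 locus on chromosome 7, both genes had higher fitted levels in mito-supplemented samples. H19 (chr7:142575529-142578143, minus strand), a maternally expressed noncoding RNA, had 135.4, 170.1, 181.4 and 625.9 CPM in control replicates 1 to 4 and 277.5, 545.3, 333.5 and 900.8 CPM in mito-supplemented replicates 1 to 4. The first 3 controls lay below every mito-supplemented library, and control replicate 4 lay above 3 of them. Igf2 (chr7:142650766-142666816, minus strand), the paternally expressed fetal growth factor, had 103.2, 96.5, 202.0 and 466.2 CPM in control and 324.6, 426.6, 187.9 and 810.6 CPM in mito-supplemented replicates 1 to 4. The log2 fold changes were 0.89 ± 0.57 (SE) for H19 and 1.01 ± 0.60 for Igf2, with adjusted p = 0.711 and 0.687 in edgeR's quasi-likelihood test. With 1 library left out they ranged from 0.50 to 1.68 and from 0.56 to 1.72, lowest without mito-supplemented replicate 4 and highest without control replicate 4. Igf2 in mito-supplemented replicate 3 lay below control replicates 3 and 4. In control replicate 4 both genes were at their highest control level.

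Igf2r (chr17:12682406-12769664, minus strand), the maternally expressed receptor that carries IGF2 to breakdown, had 275.0, 82.8, 81.3 and 139.3 CPM in control and 71.1, 131.2, 161.0 and 121.7 CPM in mito-supplemented replicates 1 to 4. Control replicate 1, the library with the highest oocyte markers, was the highest of all 8. The log2 fold change of Igf2r was -0.25 ± 0.46 (SE, edgeR quasi-likelihood adjusted p = 0.872), and without control replicate 1 it was 0.29. Airn, the paternally expressed RNA antisense to Igf2r, had 2.99, 14.7, 11.1 and 19.3 CPM in control and 14.6, 43.6, 15.5 and 18.01 CPM in mito-supplemented replicates 1 to 4, a log2 fold change of 0.94 ± 0.61 (SE, adjusted p = 0.712, edgeR quasi-likelihood test) that was 0.42 without mito-supplemented replicate 2. Grb10, an adaptor that dampens insulin and IGF receptor signalling, was at 0.64 (1.26 without control replicate 4, 0.18 without mito-supplemented replicate 4).

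Peg3 (chr7:6703892-6730431, minus strand), a paternally expressed zinc finger protein, had 485.0, 312.2, 770.0 and 1687 CPM in control and 848.5, 2839, 1447 and 2057 CPM in mito-supplemented replicates 1 to 4. Control replicate 4 lay above mito-supplemented replicates 1 and 3, and the other 3 controls lay below all 4. Its log2 fold change was 1.14 ± 0.57 (SE, edgeR quasi-likelihood adjusted p = 0.660), and 1.80 without control replicate 4. Its neighbours, the protease gene Usp29 and the maternally expressed zinc finger gene Zim1, were at 0.98 and 0.70, giving a cluster median of 0.98 with 3 of 3 higher. Zim1 was at 0.40 without control replicate 2 and at 1.17 without control replicate 4.

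Mest (chr6:30723547-30748465, plus strand), a paternally expressed hydrolase-fold protein, had 94.3, 60.9, 39.9 and 220.1 CPM in control and 176.9, 363.1, 258.9 and 251.1 CPM in mito-supplemented replicates 1 to 4. Control replicate 4 alone reached the range of the mito-supplemented libraries, above replicate 1. The mean was 103.8 ± 80.7 CPM in control and 262.5 ± 76.6 CPM in mito-supplemented samples (mean ± SD, n = 4), with a log2 fold change of 1.34 ± 0.52 (SE, edgeR quasi-likelihood adjusted p = 0.626) that was 2.03 without control replicate 4. Copg2, a maternally expressed coatomer subunit gene on the opposite strand, had 41.7 to 54.2 CPM in control and 36.6 to 53.6 CPM in mito-supplemented samples, at a log2 fold change of -0.06. Exons of Mest and Copg2 overlap over 912 bases on opposite strands, and reads from this stretch cannot be assigned to either gene unless the counting used strand.

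**Figure D3:**
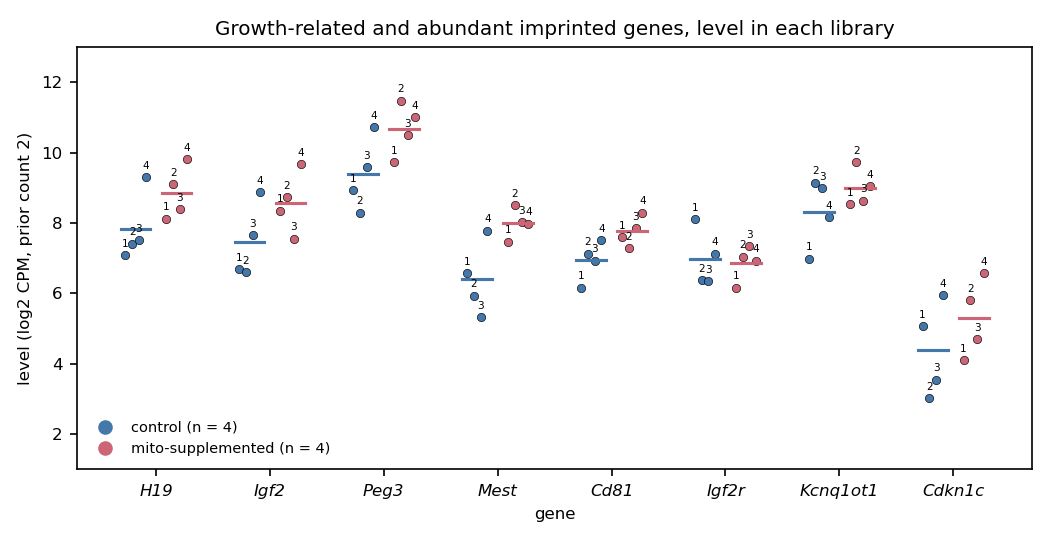
Level of 8 abundant or growth-related members in each library on the log2 CPM scale with a prior count of 2, with the replicate number beside each point and a bar at the mean of each group (n = 4). Control replicate 4 is the highest control library for H19, Igf2, Peg3, Mest, Cd81 and Cdkn1c, and control replicate 1 is the highest library for Igf2r.

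In the Kcnq1ot1 cluster on chromosome 7, 4 of 4 members tested were higher in mito-supplemented samples, with a median log2 fold change of 0.78 (1.25 with control replicate 4 left out, 0.59 with mito-supplemented replicate 4 left out). Kcnq1ot1 (chr7:143203458-143296549, minus strand), the paternally expressed RNA antisense to Kcnq1, had 126.7, 564.9, 505.3 and 284.6 CPM in control and 367.9, 846.9, 397.7 and 527.2 CPM in mito-supplemented replicates 1 to 4. Its highest controls were replicates 2 and 3, whereas replicate 4 was the highest control for H19, Igf2, Peg3, Mest and Cd81. Cdkn1c (chr7:143458339-143461050, minus strand), the cyclin-dependent kinase inhibitor p57, had 33.1, 7.93, 11.6 and 61.2 CPM in control and 17.1, 55.8, 25.9 and 94.6 CPM in mito-supplemented replicates 1 to 4. The log2 fold changes were 0.53 ± 0.49 (SE) for Kcnq1ot1 and 0.77 ± 0.72 for Cdkn1c, with adjusted p = 0.773 and 0.778 in edgeR's quasi-likelihood test. With 1 library left out, Kcnq1ot1 was lowest at 0.22 (mito-supplemented replicate 2 left out) and highest at 0.81 (control replicate 2), and Cdkn1c was lowest at 0.25 (mito-supplemented replicate 4) and highest at 1.48 (control replicate 4). Cd81 (chr7:143052739-143067934, plus strand), a tetraspanin that is imprinted in placenta, had 71.4, 139.9, 121.5 and 181.8 CPM in control and 192.0, 156.1, 231.9 and 313.8 CPM in mito-supplemented replicates 1 to 4. Mito-supplemented replicate 2 was the only library of its group below the highest control, and the log2 fold change was 0.80 ± 0.37 (SE, edgeR quasi-likelihood adjusted p = 0.655). Kcnq1, the potassium channel subunit whose exons overlap Kcnq1ot1 over 121 bases on the opposite strand, had 12.4 and 11.3 CPM in mito-supplemented replicates 2 and 3 and 0.904 to 3.16 CPM in the other 6 libraries, at a log2 fold change of 1.66 (1.14 with mito-supplemented replicate 2 left out, 0.92 with the replicate number as a block).

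The lowest fold changes were those of Ddc and Herc3. Ddc, an aromatic amino acid decarboxylase, had 0, 3, 7 and 25 counts in control and 20, 10, 5 and 12 counts in mito-supplemented replicates 1 to 4, and its log2 fold change was -0.95 ± 1.45 (SE, edgeR quasi-likelihood adjusted p = 0.852). Without control replicate 4, which held most of the control counts, it was 1.68. Herc3, a maternally expressed ubiquitin ligase, had 108.3, 10.5, 14.4 and 25.1 CPM in control and 10.9, 23.5, 31.7 and 27.9 CPM in mito-supplemented replicates 1 to 4, a log2 fold change of -0.75 ± 0.72 (SE, adjusted p = 0.782, edgeR quasi-likelihood test) that was 0.53 without control replicate 1. Both signs thus rested on 1 control library each.

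The other 25 members tested comprised 19 with a higher and 6 with a lower fitted level in mito-supplemented samples, from -0.67 for Nespas, an RNA antisense within the Gnas locus, to 1.66 for Kcnq1. With 1 library left out, 11 of the 25 changed sign and 14 did not. Under at least 1 of the other processing settings, 7 of the 25 changed sign. Their adjusted p values ran from 0.669 to 0.997 in edgeR's quasi-likelihood test. The amino acid transporter gene Slc38a4 was at 1.35 and the membrane proteolipid gene Nnat at 1.22 (2.12 and 2.15 without control replicate 4). Impact, a regulator of the kinase GCN2, had 30.2 to 40.5 CPM in control and 28.0 to 39.2 CPM in mito-supplemented samples and a log2 fold change of 0.00 ± 0.31 (SE). Ube3a, the ubiquitin ligase of the Snrpn-Ube3a cluster, had 52.9 to 75.3 CPM in control and 52.7 to 67.4 CPM in mito-supplemented samples, and its neighbour Ndn, which restrains cell growth, was at 0.21 (-0.05 without control replicate 2). Impact and Ube3a varied far less between libraries than H19, Peg3 or Meg3.

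Ratios between a paternally and a maternally expressed neighbour were compared in each library, since such a ratio does not depend on the scaling between libraries. Of 12 pairs, 10 could be tested, and 0 differed at an adjusted p value under 0.05 while 1 had an unadjusted p value under 0.05 (exact permutation test, two-sided, Benjamini-Hochberg over 10 pairs). The log2 ratio of Mest to Copg2 ran from -0.10 (replicate 3) to 2.16 (replicate 4) in control, with 0.80 and 0.54 in replicates 1 and 2, whereas mito-supplemented replicates 1 to 4 were at 2.27, 2.76, 2.48 and 2.51. The groups did not overlap. The means were 0.85 ± 0.95 and 2.505 ± 0.20 (mean ± SD, n = 4), a difference of 1.65 with an exact permutation p of 0.0286, which is the smallest that 4 against 4 samples allow, and an adjusted p of 0.286. The overlapping exons described above limit this ratio.

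The log2 ratio of Igf2 to H19 was -0.37 ± 0.40 in control and -0.28 ± 0.44 in mito-supplemented samples (mean ± SD, n = 4, exact permutation p = 0.686). That of Dlk1 to Meg3 was -2.58 ± 0.83 and -3.13 ± 0.83 (n = 4, exact permutation p = 0.486). That of Peg3 to Zim1 was 5.36 ± 0.86 and 5.50 ± 0.46 (n = 4, exact permutation p = 0.857), and that of Kcnq1ot1 to Cdkn1c was 3.93 ± 2.16 and 3.69 ± 0.84 (n = 4, exact permutation p = 0.914). These 4 differences were smaller than the spread between replicates. The ratio of Airn to Igf2r was -6.46 in control replicate 1 and -3.36 to -1.59 in the other 7 libraries. In all, 7 of the 10 ratios had a higher mean and 3 a lower mean in mito-supplemented samples.

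**Figure D4:**
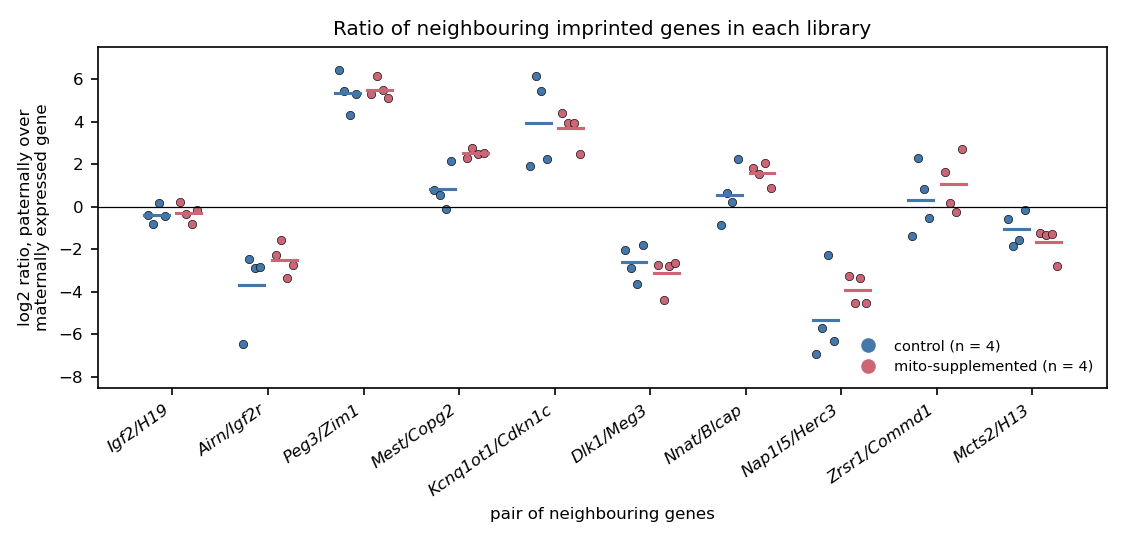
Log2 ratio of a paternally to a maternally expressed neighbour in each library for the 10 pairs tested, with a bar at the mean of each group (n = 4). The ratio of Mest to Copg2 is the only one whose groups do not overlap, with mito-supplemented libraries at 2.27 to 2.76 and controls at -0.10 to 2.16.

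Markers of other cells also differed between libraries, some lists in an order like that of the members and others not. The 12 stroma markers, among them Col1a1, Dcn and Pdgfra, summed to 452.5, 542.8, 835.3 and 2741 CPM in control replicates 1 to 4 and to 1097, 1163, 3062 and 2579 CPM in mito-supplemented replicates 1 to 4, and 12 of 12 had a higher fitted level in mito-supplemented samples with a median log2 fold change of 0.75 (1.62 with control replicate 4 left out, 0.35 with mito-supplemented replicate 3 left out). The 10 surface epithelium markers, such as Krt8 and Upk3b, summed to 33.2 to 329.0 CPM in control and to 305.6, 794.0, 337.1 and 700.2 CPM in mito-supplemented replicates 1 to 4, with 10 of 10 higher and a median of 1.88 (3.37 without control replicate 4). The 14 pregranulosa markers summed to 190.0 to 650.9 CPM in control and to 490.2, 935.3, 668.9 and 902.4 CPM in mito-supplemented replicates 1 to 4, with 10 of 12 tested higher and a median of 0.77 (0.50 to 1.08 with 1 library left out, lowest without control replicate 2). As for the members, replicate 4 was the highest control library and replicate 1 the lowest mito-supplemented library in all 3 sums. Mito-supplemented replicate 2 was above replicate 3 for the members, pregranulosa and surface epithelium, and below it for stroma. The 14 oocyte markers were at a median of -1.65 with 0 of 14 higher, and without control replicate 1 at 0.27. The 10 endothelial markers were at 0.57 with 7 of 10 higher (1.52 with control replicate 4 left out, 0.07 with mito-supplemented replicate 3 left out), and the 10 smooth muscle markers were at 0.64 with 9 of 10 higher (2.02 with control replicate 4 left out, -0.04 with mito-supplemented replicate 4 left out). The immune markers, with 6 of 10 tested, were at 0.90 (-1.97 without mito-supplemented replicate 1) and summed to 772.6 CPM in mito-supplemented replicate 1 against at most 139.1 CPM elsewhere, and the red cell markers, with 5 of 8 tested, were at -0.47 (0.41 with control replicate 2 left out, -5.68 with mito-supplemented replicate 1 left out). Of all these markers, 1 immune marker, C1qb, had 0 counts in every library. The part of these cells, and of the rRNA share of control replicate 4, in the members' levels was not tested.

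**Figure D5:**
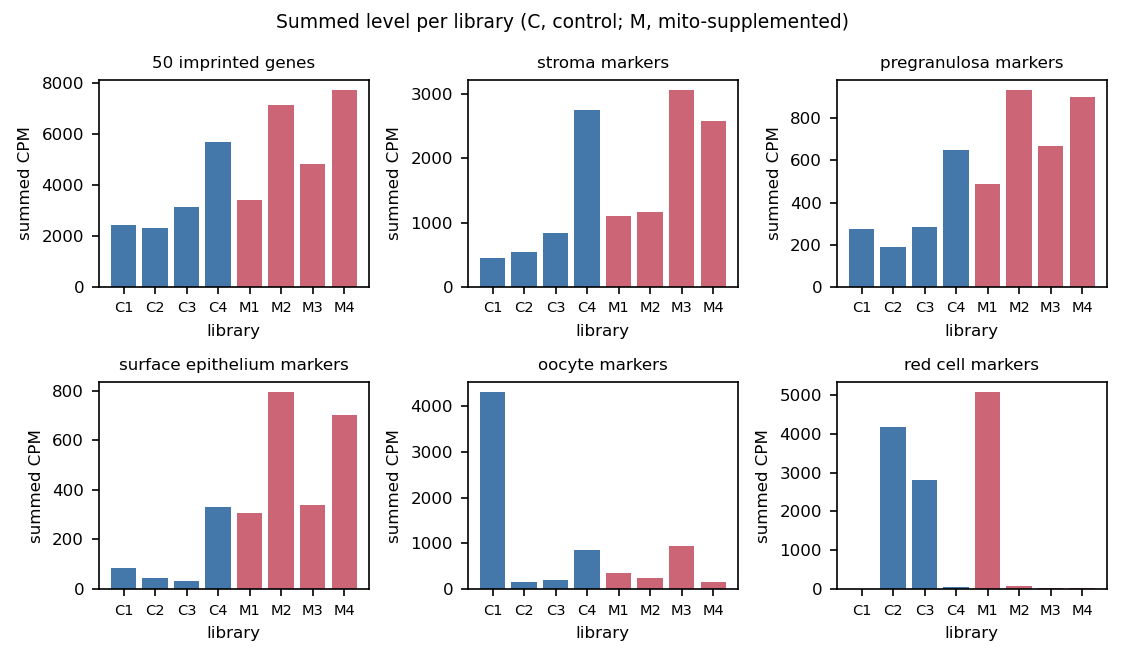
Summed CPM of the 50 members and of 5 lists of cell markers in each library, with control libraries C1 to C4 and mito-supplemented libraries M1 to M4. The members, stroma, pregranulosa and surface epithelium sums are highest among the controls in C4, while the oocyte sum is highest in C1 and the red cell sums in C2, C3 and M1.

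Genes that set or keep imprints were examined beside the members. Of 19 such genes, 17 were tested, 5 had a higher and 12 a lower fitted level in mito-supplemented samples, and 0 had an adjusted p value under 0.05 in edgeR's quasi-likelihood test. The median over these 17 genes was -0.22 on the log2 scale (0.06 with control replicate 1 left out). Those with an unadjusted p value under 0.05 numbered 3 of 17, all lower, where 7.71% of all genes passed and 2.4% passed as lower. Dnmt1, the maintenance DNA methyltransferase, had 412.7 ± 186.4 CPM in control and 172.4 ± 97.1 CPM in mito-supplemented samples (mean ± SD, n = 4), with a log2 fold change of -1.26 ± 0.46 (SE, edgeR quasi-likelihood adjusted p = 0.626). Uhrf1, its partner at replicated DNA, was at -1.61 and Smchd1, a chromosomal protein needed for silencing at some imprinted clusters, at -0.77. Dnmt1 was highest in control replicates 2 and 3 at 606.2 and 537.6 CPM, the controls with high red cell markers, and its next highest level was 317.7 CPM in mito-supplemented replicate 1. Dnmt3a, the methyltransferase that sets imprints in growing oocytes, was at 0.94 and its cofactor Dnmt3l had 0 counts in every library. A further 24 genes reported as imprinted in some tissue were split evenly, with 9 of 18 tested higher and 9 lower, a median of -0.18 (-0.34 with mito-supplemented replicate 4 left out, -0.06 with control replicate 3 left out), and 1 at an unadjusted p value under 0.05, Ppp1r9a at 1.32.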

How the data were processed

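RNA was sequenced from primordial follicles of 4 control and 4 mito-supplemented samples, after total RNA amplification with the Trio RNA-Seq kit. The authors deposited raw counts per gene symbol, made, per the labels, with Trim Galore 0.4.4, STAR 2.5.3a on mm10 (GRCm38) and featureCounts. The annotation release, strand setting and handling of multiply mapped reads are not given in the sources used here. The study left out a further control library, not analysed here.

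The counts were tested with edgeR 4.0.16 in R 4.3.3 (TMM, filterByExpr, quasi-likelihood test, Benjamini-Hochberg adjustment over all 13873 genes tested), with no covariates. CPM are TMM-normalised, and log2 CPM add a prior count of 2. Each standard error is the log2 fold change divided by the square root of F. The common biological coefficient of variation was 0.771. Exon lengths, coordinates and overlaps are from GENCODE M21. DESeq2 1.42.0, limma 3.58.1 and other normalisations, filters, offsets and designs were alternatives. Scripts were tested on simulated data. The label codes have a prefix of unstated meaning, with 2 prefixes in each group, and counts summed by prefix were another alternative.

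The rule for the members used no measured value, but the members and gene lists were chosen with earlier results of these data known. Members named with values in every sample were those with an unadjusted p value under 0.05, the 5 with the highest level per kilobase, the 2 largest differences in each direction and the genes of the pairs H19-Igf2, Igf2r-Airn, Dlk1-Meg3 and Cdkn1c-Kcnq1ot1. Other genes named were chosen after their values were seen.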

Additional observations from a re-analysis of the deposited data

Results flagged for a closer look

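In 52 groups of 4 samples (the 15 members named by the rule and 10 ratios, and the summed level, in each group), the highest or lowest sample stood apart from the other 3 in 4 cases, where chance gives about 1 in 20 groups or 2.6. The log2 CPM of Mirg was 1.27 in control replicate 3 and -3.03 to -2.31 in the other controls. The log2 ratio of Airn to Igf2r was -6.46 in control replicate 1 and -2.86 to -2.48 in the other controls. The log2 ratio of Dlk1 to Meg3 was -4.37 in mito-supplemented replicate 2 and -2.77 to -2.64 in the others of its group. The log2 ratio of Mcts2, a retrotransposed gene, to its host H13 was -2.78 in mito-supplemented replicate 4 and -1.35 to -1.23 in the others of its group.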

How the results depend on the processing

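Of 235 signed values (named members, ratios and medians) recomputed under other settings, 5 changed sign, and of 304 with a library left out, 18 did, 10 of them among members and ratios, 1 the paternal minus maternal difference, 6 among cell marker lists and 1 the list of genes that set or keep imprints. How many members passed a threshold depended on the test and on single libraries. The count of members at an adjusted p value under 0.05 was 0 under every alternative except limma-voom with sample quality weights, where it was 11 of 40 (21% of all genes in both directions). The count at an unadjusted p value under 0.05, 3 in the quasi-likelihood test, was 15 of 40 with limma-voom (37.6% of all genes in both directions, and all 15 higher), 13 of 40 with library size only (9.67% of all genes), 5 of 49 with every gene counted in any sample (7.54%) and 9 of 44 with counts summed by label code prefix (7.5%), and 3 to 13 with each library left out (13 without control replicate 4, 8 without mito-supplemented replicate 1, and 3.95 to 14.1% of all genes over these fits). Library size only moved the median of all genes from -0.10 to 0.17 and that of the maternally expressed members to 1.21. Igf2r, Ddc and Herc3 changed sign with limma-voom (0.61, 0.23 and 0.78), as did Ddc with library size only (0.0114). The cause was not tested. With each library left out, the ranges were -0.45 to 0.29 for Igf2r, -1.37 to 1.68 for Ddc, -1.07 to 0.53 for Herc3, -0.0749 to 0.28 for the ratio of Igf2 to H19, -0.91 to 0.49 for Kcnq1ot1 to Cdkn1c and -0.21 to 0.49 for Peg3 to Zim1. The medians ranged from 0.42 to 1.18 (highest without control replicate 4) for paternally and from 0.44 to 1.10 for maternally expressed members, the paternal minus maternal difference from -0.03 to 0.26, and the number of members higher without overlap from 0 to 10 (3.42 to 8.44% of all genes). Control replicate 4 had the fewest counts outside the rRNA genes, and the effect of depth on these results was not tested.

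Samples with the same replicate number did not deviate together (correlations -0.24, -0.19, -0.33 and 0.22), so they share only a number. With the replicate number as a block, 7 of 40 members had an unadjusted p value under 0.05 (7.07% of all genes) and 0 an adjusted one, and Ddc was at 0.54.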

Other observations

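The Dlk1-Dio3 cluster also holds microRNA genes, of which 53 are listed in the table. A count was found for 33, and 0 passed the expression filter. Summed over these genes there were 0, 9, 96 and 2 counts in control replicates 1 to 4 and 17, 69, 45 and 179 counts in mito-supplemented replicates 1 to 4. Mir673 had 47 counts and Mir453 had 49 counts in mito-supplemented replicate 4, and Mir665 had 31 counts in control replicate 3. These genes lie in or near Meg3, Rian, Mirg and Rtl1, and the counts do not separate precursors, host RNAs and mature microRNAs.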
